A study of Mus musculus with 5 samples.

Results

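Fn3krp, which encodes the fructosamine-3-kinase-related protein, is described here with its paralogue Fn3k and with Tbcd, the next gene along mouse chromosome 11, in haematopoietic stem and progenitor cells (HSPCs). The members were taken by symbol from the deposited expression table, and all 3 were among its 11352 genes. They were chosen by the same library values: Fn3krp had the lowest ratio between the groups in the same table, and the other genes lie beside it. Their differences are therefore given as descriptions, without tests. The table holds 5 libraries in 2 groups. The Cux1-low group (2 libraries) came from mice with the genotype Cux1-knockdown, and the Cux1-low;NrasG12D group (3 libraries, called the NrasG12D libraries) from mice with the genotype Cux1-knockdown;NrasG12D. All mice, of either genotype, had been given doxycycline and pI:C for 4 weeks (pI:C is an RNA mimic of viral infection and sets off interferon), and the Cux1 knockdown is carried by both groups. The sort kept cells with KIT and SCA1 on their surface and removed those with lineage markers or CD135. The promoters that drive the knockdown and the allele, the age of the mice and whether each library came from its own animal are not stated in the labels, so the spread between libraries may be technical in part. Neither mice with normal Cux1 nor mice with the Nras allele alone were analysed here.

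Sugars react with the amino groups of lysine side chains without an enzyme, a process called glycation, and the first stable products are ketoamines such as fructosamines. FN3K phosphorylates the sugar of fructosamines at the third carbon, which makes the adduct unstable so that it leaves the protein. FN3KRP acts in the same way on ribulosamines and psicosamines but not on fructosamines, and FN3K has also been linked to NRF2, a transcription factor of the oxidative stress response that is itself subject to glycation. TBCD is a tubulin folding cofactor, a chaperone that helps to assemble the dimer of alpha and beta tubulin from which microtubules are built, and is not related to the kinases.

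The 3 genes lie head to tail on the plus strand of chromosome 11 (GENCODE release M21 on mm10). Fn3krp (ENSMUSG00000039253.7) spans 121421401 to 121431288 with 6 exons and 1 annotated transcript. Fn3k (ENSMUSG00000025175.12) follows after a gap of 3624 bases and spans 121434913 to 121450491, with 3 transcripts. Tbcd (ENSMUSG00000039230.14) spans 121451949 to 121617164. No annotated exon of Fn3krp or Fn3k overlaps another gene. The exons of Tbcd overlap those of B3gntl1, on the opposite strand, over 237 bases, and the labels do not say whether the counting was stranded, so a few reads cannot be assigned to either with certainty.

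The paralogues differ over much of their RNA. Their coding sequences have the same length of 927 bases and were identical at 618 of 919 aligned bases (67.2%). No run of 25 bases was shared between the annotated transcripts of Fn3krp and Fn3k. The longest run common to both has 18 bases and lies in the coding part of each; it is shown because it is the closest point between the genes as a sequencing read sees them.

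Fn3krp and Fn3k, shared run: ctccatggagacctctgg

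The promoters of Fn3krp and Tbcd are shown because these neighbours, whose starts lie 30.5 kb apart, had unlike values in the same libraries. Each line holds the 250 bases before the RefSeq start (build GRCm38.p6, plus strand), and RefSeq entries matched 2 of the 3 members. Capitals mark the motifs CCAAT and GGGCGG, searched on both strands. CUX1 is also known as the CCAAT displacement protein, and GGGCGG is the GC box bound by SP1.

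Fn3krp, chr11:121421123-121421372: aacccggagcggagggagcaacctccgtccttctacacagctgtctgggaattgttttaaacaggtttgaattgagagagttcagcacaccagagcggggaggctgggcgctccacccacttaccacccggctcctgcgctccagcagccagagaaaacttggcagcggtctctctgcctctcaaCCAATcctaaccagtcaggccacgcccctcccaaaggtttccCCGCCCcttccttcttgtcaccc
Tbcd, chr11:121451741-121451990: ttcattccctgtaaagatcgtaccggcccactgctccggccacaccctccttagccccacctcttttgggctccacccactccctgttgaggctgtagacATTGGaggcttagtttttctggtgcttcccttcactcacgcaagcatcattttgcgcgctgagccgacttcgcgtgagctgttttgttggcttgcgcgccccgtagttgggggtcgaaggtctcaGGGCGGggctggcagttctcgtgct

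Each of these promoters held 1 CCAAT box and 1 GC box. The Tbcd window ends at 121451990, past the GENCODE start of Tbcd at 121451949. Its last bases, GC box included, thus lie within the gene as GENCODE annotates it. In Fn3krp the CCAAT box is on the plus strand, 65 to 61 bases before the start, and in Tbcd it is on the minus strand, 150 to 146 bases before it. Of the 32851 promoters of the same length in the RefSeq table, 33.8% held a CCAAT box and 32.7% held a GC box on either strand. A sequence that CUX1 is known to bind, ATCGAT, was also searched on both strands; it was in neither window and in 0.728% of all promoters. A match describes letters, not a bound site. The GC content was 58.8% for Fn3krp and 58.4% for Tbcd, against a median of 52.4%.

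Fn3krp, the kinase for ribulosamines, was low in every NrasG12D library. Its level was 29.8 and 27.4 normalized CPM in Cux1-low, against 2.46, 2.51 and 3.22 in NrasG12D libraries 1, 2 and 3. Normalized CPM are the authors' values headed CPM, whose columns sum to 971746 to 1026780. The groups were far apart, with the lowest Cux1-low library 8.51-fold above the highest NrasG12D library. Reads were recovered from the smallest step between the values of a library, a step that no source states. By this they were 608 and 569 against 48, 44 and 53, and the exact 95% Poisson intervals, which cover counting error only, ran from 25.2 to 32.3 normalized CPM in Cux1-low and from 1.82 to 4.21 in NrasG12D. The group means were 28.6 ± 1.71 (SD, n = 2) and 2.73 ± 0.424 (SD, n = 3), so that 9.55% of the Cux1-low level remained, a 10.5-fold lower mean. As log2(value + 1), on which the folds of low genes come out smaller, the difference was -2.99 (SE 0.19). Reads of Fn3krp were present in all 5 libraries. In bulk samples, fewer cells that express a gene and less RNA per cell cannot be told apart.

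Fn3k, the fructosamine kinase, was low in both groups, and the groups overlapped. Its level was 5.0 and 3.90 normalized CPM in Cux1-low, against 1.74, 4.57 and 3.16 in NrasG12D. NrasG12D library 1 was the lowest, with 34 reads, and library 2 lay between the Cux1-low libraries. The log2 difference was -0.44 (SE 0.33), and it depended on single libraries: without NrasG12D library 1 it was -0.17, and without NrasG12D library 2 it was -0.68. The Poisson interval from the recovered reads was 1.21 to 2.44 normalized CPM in library 1, and those of the Cux1-low libraries were 4.08 to 6.07 and 3.10 to 4.85; they cover counting error only.

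Tbcd, the tubulin cofactor, was the best measured of the members, with 1642 to 2602 reads per library. Its level was 94.2 and 100.1 normalized CPM in Cux1-low, against 118.6, 148.5 and 99.8 in NrasG12D. NrasG12D libraries 1 and 2 were above both Cux1-low libraries, and library 3 lay between them, so the groups overlapped. The log2 difference was 0.31 (SE 0.17), and without NrasG12D library 2 it was 0.16.

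**Figure D1:**
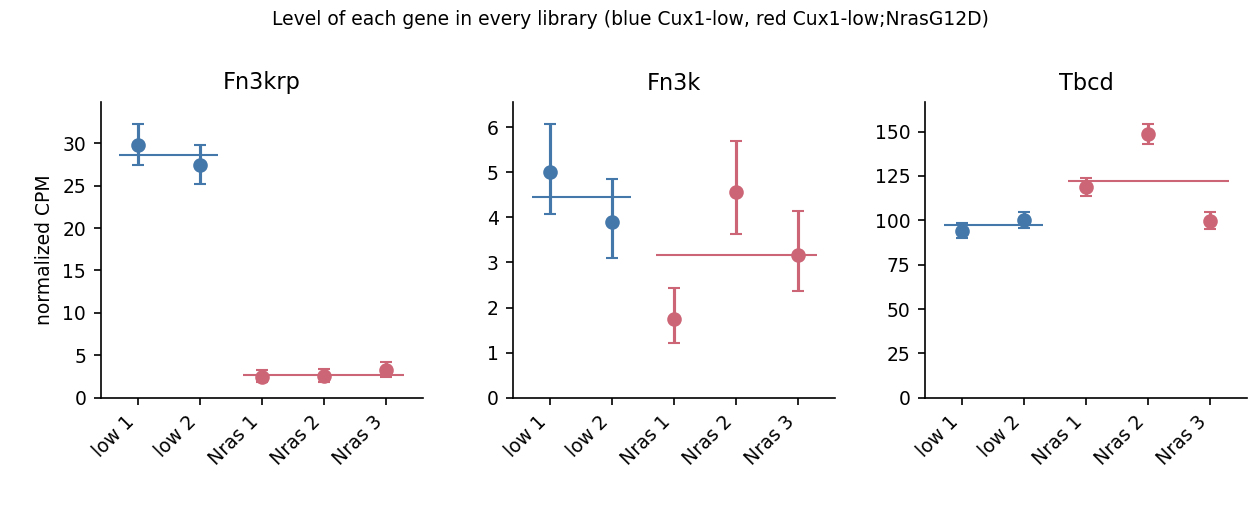
Normalized CPM of Fn3krp, Fn3k and Tbcd in the 2 Cux1-low (blue, low) and 3 Cux1-low;NrasG12D (red, Nras) libraries, each panel with its own axis from 0. Points are libraries, bars are exact 95% Poisson intervals of the reads, and horizontal lines are group means; the groups are apart for Fn3krp (lowest 27.4 against highest 3.22) and overlap for Fn3k and Tbcd.

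The ratio of the kinase genes to each other differed between the groups. Per kb of annotated exon (2.52 kb for Fn3krp and 4.40 kb for Fn3k), the level of Fn3krp was 10.4 and 12.3 times that of Fn3k in the Cux1-low libraries. These lengths merge the exons of all annotated transcripts (1 for Fn3krp, 3 for Fn3k and 8 for Tbcd). Levels per kb therefore compare different genes only roughly. In the NrasG12D libraries the same ratio was 2.46, 0.960 and 1.78. The summed level of both genes was 34.8 and 31.3 normalized CPM in Cux1-low, against 4.21, 7.08 and 6.38 in NrasG12D. In Cux1-low, the level per kb was 11.6 and 12.4 normalized CPM for Tbcd and 11.8 and 10.9 for Fn3krp, which are close to each other. In NrasG12D it was 14.7, 18.3 and 12.3 for Tbcd and 0.977, 0.996 and 1.28 for Fn3krp, with Tbcd higher in each library.

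Beside the whole table, Fn3krp lay at the lower end and Fn3k and Tbcd within the usual range. The median log2 difference over all genes was -0.00297, with the 5th and 95th percentiles at -0.94 and 0.59, and the values of Fn3k and Tbcd lay between these. On the normalized CPM scale 60 of 11352 genes were at least 4-fold lower in the NrasG12D mean and 2 were at least 8-fold lower. Fn3krp had the lowest ratio of the listed genes, and ranked 2 from the lowest by the difference of log2(value + 1). Genes above 1 only in the Cux1-low libraries are not listed, so the lower end is cut. Every NrasG12D library lay below every Cux1-low library for 27.0% of all genes, and the groups did not overlap for 53.5%, so such separation by itself is common in these libraries. In the authors' deposited table the log2 fold change was -3.39 for Fn3krp, the lowest of the table, -0.50 for Fn3k and 0.33 for Tbcd. Fn3krp ranked 4 by the p-value in the authors' deposited table, and these ranks come from the contrast by which it was chosen.

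NrasG12D library 3 stood apart from libraries 1 and 2 in many genes, so its level of each member is given beside theirs. A relative position was computed for each gene on the normalized CPM scale, such that the Cux1-low mean is 0 and NrasG12D libraries 1 and 2 average 1. Of 905 genes that were at least 2-fold lower in libraries 1 and 2, the median position of library 3 was 0.587 and the quartiles were 0.389 and 0.762. Fn3krp was at 0.972, and 60 of the 905 genes, itself included, were at that position or beyond. Nothing is read from this difference: Fn3krp was chosen by a ratio to which library 3 contributed, so a low value there follows from the choice, while the 905 genes were taken by libraries 1 and 2 alone, which leaves their library 3 free to lie nearer to Cux1-low. Fn3k was at 0.996, where libraries 1 and 2 were themselves far apart (1.74 and 4.57 normalized CPM). Tbcd was at 0.0718, close to the Cux1-low mean. The log2 difference of Fn3krp was -3.08 without library 3 and -2.93 to -3.05 when any other library was left out.

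**Figure D2:**
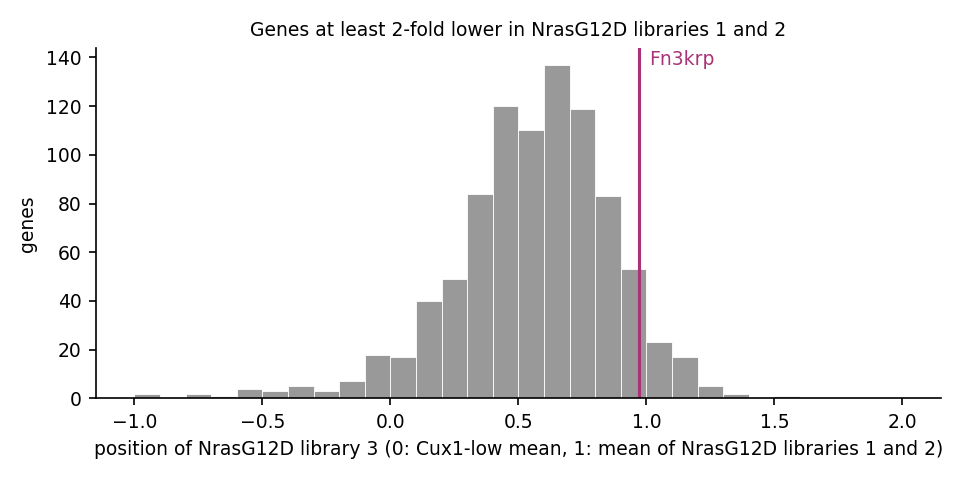
Number of genes (y axis) by the relative position of NrasG12D library 3 (x axis, where the Cux1-low mean is 0 and NrasG12D libraries 1 and 2 average 1) over the 905 genes at least 2-fold lower in libraries 1 and 2; 1 gene beyond the axis is drawn in an end bin. The line marks Fn3krp at 0.972, to the right of the median of 0.587; the values of library 3 helped to choose Fn3krp but not the other genes, so the positions are a description.

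Markers of the sorted cells and of other cell types also differed between the libraries. All 11 HSPC markers were measured, among them Kit and Ly6a, which encode the KIT and SCA1 of the sort. Their summed level was 4008 and 4147 normalized CPM in Cux1-low, against 1900, 1579 and 2967 in NrasG12D. Of the 11, 9 were lower in every NrasG12D library, against 27.0% of all genes. The other 2, Cd48 and Slamf1, had positive log2 differences (0.40 and 0.60), and Cd48 was higher in every NrasG12D library. Summed levels of 6 erythroid markers were 2116 to 2327 against 2819 to 5788, with all 6 higher in every NrasG12D library, where 26.5% of all genes were. Summed levels of 7 B cell markers were 56.0 to 74.5 against 58.0 to 463, with NrasG12D library 3 at the Cux1-low level. The T cell genes Cd3d, Cd3e and Cd3g and the globin genes Hba-a1 and Hbb-bt were not among the listed genes. In the HSPC, erythroid and B cell sums library 3 was nearer to the Cux1-low libraries than libraries 1 and 2 were.

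Several marker lists held genes that were lower in every NrasG12D library, library 3 included, as Fn3krp was (27.0% of all genes were). These were 4 of 4 measured dendritic cell, 3 of 3 endothelial, 4 of 7 megakaryocyte and 1 of 2 macrophage genes. They also included 2 of 6 genes of the mast cell, eosinophil and basophil list and the 9 of 11 HSPC genes given above. Siglech, also on the dendritic cell list, was not among the listed genes. Summed levels of 4 dendritic cell markers were 1112 and 909 normalized CPM against 517, 365 and 441, and all 4 were lower in every NrasG12D library, where 27.0% of all genes were. H2-Aa, a major histocompatibility complex class II gene, fell from 164 and 102 to 53.8, 32.6 and 34.5 (limma adjusted p = 0.0478). Flt3, of the same list, encodes the CD135 by which cells were removed in the sort, and was at 326 and 388 against 196, 165 and 230 (limma adjusted p = 0.0538). The eosinophil granule protein genes Epx and Prg2 fell (both limma adjusted p = 0.0430), Epx from 61.5 and 67.8 to 24.2, 34.0 and 30.7 and Prg2 from 156 and 193 to 58.7, 90.4 and 68.0. Of the marker genes only H2-Aa, Epx and Prg2 passed, and Flt3 did not. These 4 genes are named after their values were seen. Of the 6 genes of the mast cell, eosinophil and basophil list, 2 were lower in every NrasG12D library and 3 had a positive log2 difference. The sum of the mast cell, eosinophil and basophil list overlapped between the groups (666 to 896 against 629 to 891), as did those of the granulocyte-monocyte (7510 to 10610 against 8154 to 19566) and T and NK cell lists (234 to 249.6 against 182 to 335). Most of the T and NK cell sum, with 3 of 6 listed genes measured, was Nkg7 (224 and 243 normalized CPM in Cux1-low), also named after its values were seen. The sums were lower in NrasG12D for 7 megakaryocyte (905 to 924 against 509 to 901), 3 endothelial (178 to 184 against 99.8 to 139.6) and 2 macrophage genes (6.37 to 6.69 against 4.11 to 5.59). Of 5 listed macrophage genes these 2 were measured, at only 0.97 to 4.57 normalized CPM, and 1 had a positive log2 difference. The part of cell composition in the difference of Fn3krp was not tested. Cux1 (281 to 306 against 279 to 311 normalized CPM) and Nras (115 to 144 against 113 to 126) overlapped between the groups, and a total mRNA level checks neither a knockdown carried by both groups nor a point mutation.

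The genes around Fn3krp were measured in the same libraries. Of 36 other genes annotated within 500 kb, 11 were measured, and 0 passed limma's test (adjusted p under 0.05 over all 11352 genes), where 1.13% of all genes did (0.255% higher and 0.872% lower). The listed symbol BC017643, known as an older name of Cybc1 in this window, had no match in the reference tables and is not among the 11. It was at 93.8 and 101.8 normalized CPM against 97.4, 87.1 and 103.3 (log2 difference -0.03, limma adjusted p = 0.878), so the groups overlapped. At an unadjusted p under 0.05 there were 3 of 11, against 31.4% of all genes. Their log2 differences ran from -0.70 (Metrnl, which encodes the secreted protein meteorin-like) to 0.87 (Cd7), with a median of -0.11; these 2 genes are named after their values were seen. Without NrasG12D library 3, 2 of the 11 rose and 3 fell, while 37.4% of all genes passed in the same fit (18.0% rose and 19.4% fell).

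The 6 nearest measured genes with a matched position had values on both sides of zero. Wdr45b, an autophagy gene that encodes WIPI3, ends 67.0 kb before Fn3krp and was at 80.7 and 74.5 normalized CPM against 69.6, 70.7 and 70.7 (log2 difference -0.14, limma adjusted p = 0.387). Foxk2, a forkhead transcription factor gene, was at 66.0 and 62.6 against 82.0, 88.6 and 88.7 (log2 difference 0.42, limma adjusted p = 0.0774). For both, the groups did not overlap, in opposite directions, and neither passed the test. Narf, which encodes a factor that binds prelamin A, was at 92.9 and 95.5 against 106.2, 154.9 and 97.9 (limma adjusted p = 0.307). Beyond Tbcd, the glycosyltransferase gene B3gntl1 was at 23.5 and 29.7 against 15.5, 18.9 and 22.5 (log2 difference -0.47, limma adjusted p = 0.164). Hexdc, a hexosaminidase gene, and Ogfod3, both farther from Fn3krp than Cybc1, had log2 differences of 0.52 and 0.12 (limma adjusted p = 0.198 and 0.593). Of these 6 genes, 3 were higher and 2 were lower in every NrasG12D library, where the groups did not overlap for 53.5% of all genes. None of their log2 differences was near the -2.99 of Fn3krp.

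**Figure D3:**
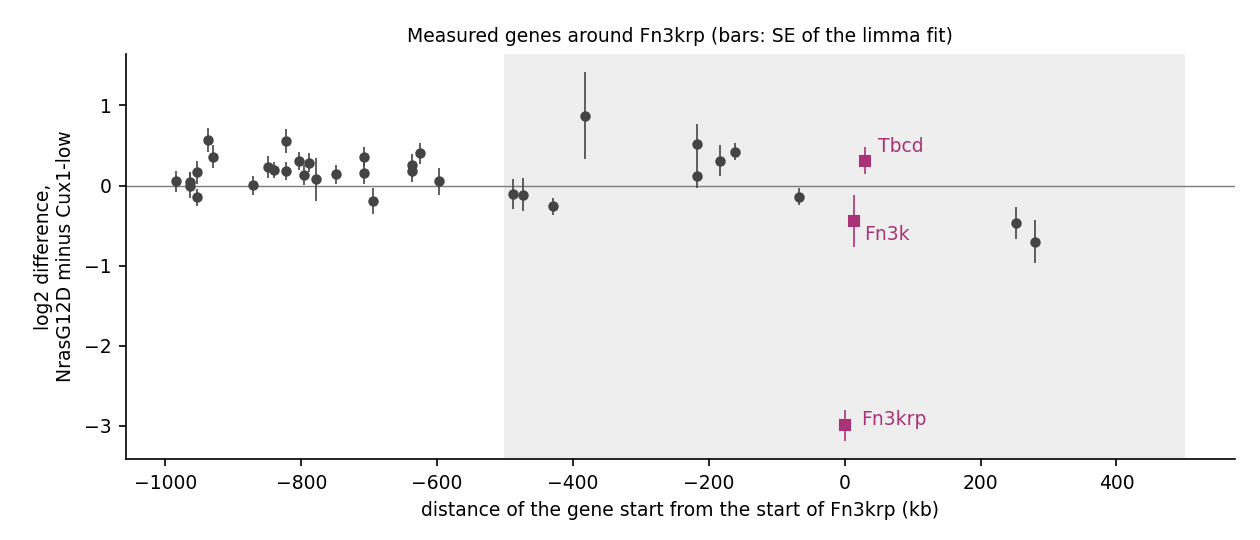
Log2 difference (y axis, NrasG12D minus Cux1-low, bars are SE of the limma fit) of each measured gene within 1 Mb of Fn3krp, by the distance of its start from the start of Fn3krp in kb (x axis). Squares are Fn3krp, Fn3k and Tbcd, and the shaded area is the window of 500 kb; Fn3krp lies at -2.99, while the other points in that window lie between -0.70 and 0.87.

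Over the whole of chromosome 11, 15 of 962 other genes with a matched position passed (1.56%, against 1.13% of all genes), 3 higher and 12 lower. The closest of these, Slc26a11, an anion transporter gene, lies 2.04 Mb before Fn3krp and fell from 26.3 to 12.8 normalized CPM (log2 difference -0.98, limma adjusted p = 0.0430). Timp2, an inhibitor of matrix metalloproteases, lies 3.07 Mb before it and fell from 80.5 to 25.3 (log2 difference -1.64, limma adjusted p = 0.0260). Both are named after their values were seen. Within 1 Mb, 0 of 35 measured genes passed.

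Other genes that handle glycation and reactive carbonyls had mostly small differences. Of 26 listed genes other than the kinases, 22 were measured. Of these, 0 passed in either direction, where 1.13% of all genes did. An unadjusted p under 0.05 was found for 6, against 31.4% of all genes. The median log2 difference was 0.13, against -0.00297 over all genes, and 15 of 22 were positive. Park7, which encodes DJ-1, a protein of the oxidative stress response with a reported deglycase activity, was at 306 and 314 normalized CPM against 451, 406 and 381 (log2 difference 0.41, limma adjusted p = 0.0816). Prkcsh, which encodes the beta subunit of glucosidase II and has been described as a receptor component for advanced glycation end products, was at 147 and 139 against 198, 174 and 168 (limma adjusted p = 0.113). In both genes every NrasG12D library lay above every Cux1-low library, as in 26.5% of all genes. Without NrasG12D library 3, 8 of the 22 genes rose and 2 fell, against 18.0% and 19.4% of all genes.

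The NRF2 list gave values in both directions. Of 29 listed genes, 26 were measured, 0 passed (1.13% of all genes) and 11 had an unadjusted p under 0.05 (31.4% of all genes). The median log2 difference was 0.15. Ephx1, a microsomal epoxide hydrolase gene, was at 5.78 and 6.16 normalized CPM against 2.15, 2.05 and 3.28 (log2 difference -1.01, limma adjusted p = 0.0727). Taldo1, which encodes transaldolase of the pentose phosphate pathway, was at 353 and 356 against 629, 613 and 448 (log2 difference 0.65, limma adjusted p = 0.0765). The groups did not overlap for either gene, as for 53.5% of all genes, and the signs are opposite. Without NrasG12D library 3, 8 of the 26 genes rose and 6 fell, beside 18.0% and 19.4% of all genes.

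The partners of Tbcd had small positive values. All 7 other tubulin cofactor genes were measured. Of these, 0 passed, where 1.13% of all genes did, and 0 had an unadjusted p under 0.05, where 31.4% did. All 7 log2 differences were positive, with a median of 0.18, against -0.00297 over all genes. Tbcb was at 63.9 and 65.7 normalized CPM against 84.7, 72.0 and 73.1, and Tbca at 21.4 and 22.5 against 28.1, 28.6 and 24.2 (limma adjusted p = 0.221 and 0.227). TBCA and TBCB hold beta and alpha tubulin on the way to the dimer. These were the 2 of 7 for which every NrasG12D library was the higher, beside 26.5% of all genes, and the groups overlapped for the other cofactors as for Tbcd. Without NrasG12D library 3, 0 of the 7 passed, where 37.4% of all genes did.

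Genes of the chaperonin and prefoldin complexes, which fold tubulin before the cofactors take it over, were positive in 15 of 15 cases, with a median of 0.30. None passed limma's test, where 1.13% of all genes did, and 10 had an unadjusted p under 0.05, where 31.4% of all genes did. Cct2, a chaperonin subunit gene, was at 313 and 328 normalized CPM against 451, 442 and 396 (limma adjusted p = 0.0765), and Pfdn6, a prefoldin subunit gene, at 66.3 and 67.7 against 100.3, 106.3 and 83.4 (limma adjusted p = 0.0791). For 12 of the 15 every NrasG12D library was the higher, against 26.5% of all genes. Without NrasG12D library 3, 10 of the 15 rose, against 18.0% of all genes. Of 17 tubulin genes, 13 were measured and 0 passed, with 3 at an unadjusted p under 0.05 and a median of 0.24. Tubb4b, a beta tubulin gene, was at 287 and 275 against 440, 458 and 356 (log2 difference 0.56, limma adjusted p = 0.0726), and Tubg1, the gamma tubulin gene of microtubule-organizing centres, at 60.9 and 67.8 against 91.8, 88.5 and 79.4 (limma adjusted p = 0.0863). Without NrasG12D library 3, 3 of the 13 tubulin genes rose and 1 fell, near the 18.0% of all genes that rose and below the 19.4% that fell.

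**Figure D4:**
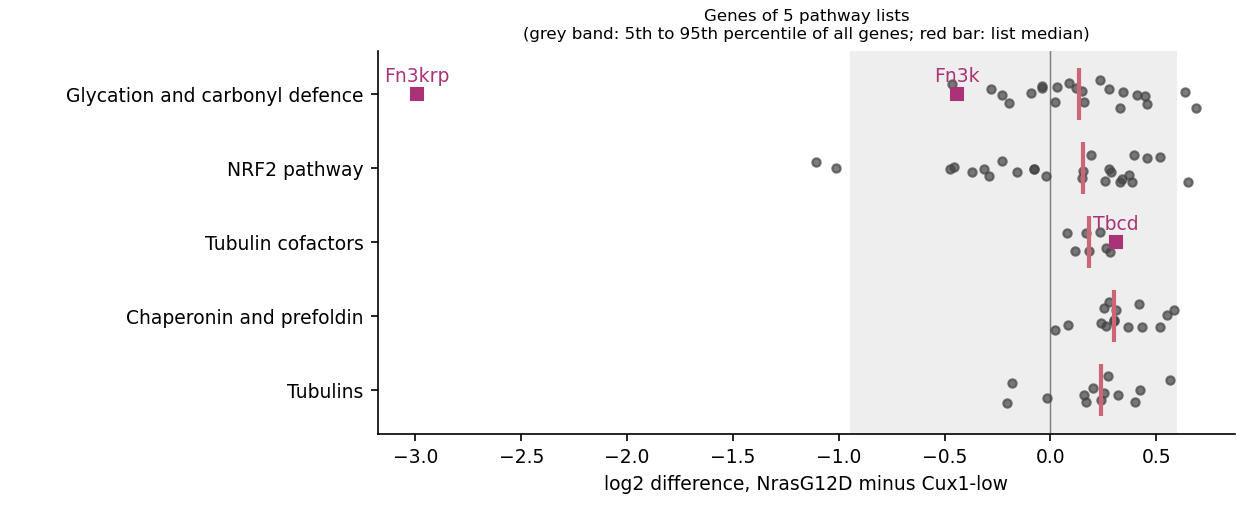
Log2 difference (x axis, NrasG12D minus Cux1-low) of each measured gene in the 5 pathway lists (y axis, points spread vertically for sight only). Red bars are list medians without the members (0.13 to 0.30), squares are Fn3krp, Fn3k and Tbcd, and the grey band spans the 5th to 95th percentile of all genes; Fn3krp lies far to the left of the other genes of its list.

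The genes most like Fn3krp over the 5 libraries shared its shape rather than its size. Likeness was measured as Pearson's r on log2(value + 1) over the 5 libraries, among 10955 genes with a mean log2 of at least 2, as a description. Among the 5 highest were Rsph3a (r = 0.99852), C1rl (0.99830), Acad10 (0.99780) and Sec24d (0.99751), and 52 genes had an r of at least 0.99. C1rl, a gene of the complement C1r family, was at 18.6 and 19.1 normalized CPM against 7.64, 7.30 and 8.26. Its 3 NrasG12D libraries lay close together, library 3 included, and below both Cux1-low libraries. The NrasG12D mean was 2.43-fold lower for C1rl, 1.86-fold, 1.39-fold and 1.14-fold lower for Rsph3a, Acad10 and Sec24d, and 10.5-fold lower for Fn3krp. None of these 4 genes lies on chromosome 11. The r of Fn3k with Fn3krp was 0.55 and that of Tbcd was -0.68, and all these correlations share the same libraries and the group difference by which Fn3krp was chosen.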

How the data were processed

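RNA of sorted mouse HSPCs had been isolated with Trizol and made into polyA libraries with an Illumina TruSeq v2 kit, per the labels' protocols. Tools named in the submitters' processing notes, with no version or role, are edgeR, HTSeq and TopHat, and the builds named there are mm10 and hg19. The deposited table lists genes that are above 1 in at least 3 of the 5 libraries, so genes above 1 only in the Cux1-low libraries are not listed. Its library values are headed CPM per the file headers, but the deposited signal columns sum to 971746 to 1026780, and are called normalized CPM. All values were whole multiples (tolerance 0.001 of a step) of 1 step per library, 0.0481 to 0.0608, which gave 16489711 to 20262498 reads per library. These reads serve for depth and for counting intervals of single libraries: too few values are low for a strict test of whole reads, so the groups were not compared on them, and the method for normalized values was used. The authors' deposited comparison holds, per gene, p-values, a likelihood ratio score and log2 values of the fold change and of the mean level.

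The groups were compared with limma 3.58.1 (R 4.3.3), with a trended variance, on log2(value + 1), 2-sided and without a block. P-values were adjusted over all 11352 genes by Benjamini-Hochberg with a threshold of 0.05, and a filter of 1 in at least 2 libraries removed 0 genes. The fit was run on simulated data with independent normal noise in every library. Those data do not hold a shift of many genes in 1 library, so they do not bear on NrasG12D library 3. The members and the lists of genes were chosen with earlier results of these data known. Named genes are the members, Cux1 and Nras, the 6 measured genes with a matched position nearest to Fn3krp and any that pass within 500 kb, up to 4 genes per pathway list that pass or the 2 with the smallest p, and the 5 most like Fn3krp, of which 1 is not reported here. Positions are those of GENCODE M21, in which 11275 of the listed symbols had 1 location, directly or by an older symbol. Promoters are RefSeq's. Alternatives were other pseudocounts, filters, scaling and windows, robust limma, a replicate block and leaving out each library. Other computations used Python 3.11.15, numpy 2.4.6, pandas 2.3.3, scipy 1.17.1, biopython 1.88 and matplotlib 3.10.9.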

Additional observations from a re-analysis of the deposited data

How the results depend on the processing

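The log2 difference of Fn3krp was -2.99, -3.35 with a pseudocount of 0.1 and -3.18 with 0.5, and moved by less than the spread between libraries under the other 10 alternatives (-3.08 to -2.93 over the 5 fits that leave out 1 library). Fn3k ranged from -0.68 to -0.17 and Tbcd from 0.16 to 0.45 over those 5 fits, within the spread, and Fn3k gave no value with a filter of 5. Over all genes, 128 passed. With the libraries scaled to the same sum 213 passed, and leaving out 1 library gave 3 to 4243, the highest without NrasG12D library 3. Where this left 1 Cux1-low library, it was assumed to vary like the other group. Of the 11 genes within 500 kb, 0 to 5 passed when 1 library was left out, and 0 with windows of 250 kb and 1 Mb. Without NrasG12D library 3, 37.4% of all genes passed. In that fit 5 of 11 neighbours, 10 of 22 glycation and carbonyl, 14 of 26 NRF2 and 10 of 15 chaperonin and prefoldin genes passed. So did 4 of 13 tubulin genes and 0 of 7 tubulin cofactors. Without NrasG12D library 1 or 2, 0 passed on each of these lists. With the replicate number as a block, 4163 of 11352 genes passed. Among them were 5 of the 11 neighbours, 8 of 22 glycation and carbonyl, 14 of 26 NRF2 and 8 of 15 chaperonin and prefoldin genes. They also held 5 of 13 tubulin genes and 0 of 7 tubulin cofactors. The members were at -3.08, -0.47 and 0.45 with that block. That block gives NrasG12D library 3 a term of its own. The labels do not say that the numbers pair the libraries. Deviations from the group means correlated at -0.19 and -0.0035 between libraries with the same number. The 2 Cux1-low libraries deviate from their mean by opposite amounts, so these correlations cannot show whether the numbers pair the libraries. Fn3k rests on 34 to 102 reads per library, which limits the precision of its difference.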
